A study of Rattus norvegicus with 10 samples.

Results

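Subunits of the proteasome and enzymes that attach or remove ubiquitin were followed in cultured Sertoli cells given follicle-stimulating hormone (FSH). They were taken from the array by gene symbol: every probe set annotated with 1 symbol that starts with Psma, Psmb, Psmc, Psmd, Psme, Ube2, Uba or Usp and a digit, where Ube2 was counted as ending in that digit. Of 8740 probe sets other than array controls, 67 met the rule, and they stood for 41 genes of the 4736 with a single symbol on the array. A mean intensity over all 10 arrays at or above the pooled median of 32.0 was required for testing, which 58 of the 67 reached (36 genes), among 4439 probe sets tested in all. No Uba gene was found, and 7 probe sets that list a matching symbol beside others were not used.

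The cells came from 20-day-old rats, and total RNA was hybridised to Affymetrix rat arrays. Cultures had received FSH for 2, 4, 8 or 24 h, and untreated cultures at 0 h were the control, with 2 arrays in each of the 5 groups, called replicate 1 and replicate 2. No untreated culture later than 0 h is among the samples, so hours of FSH and hours in culture cannot be told apart. The labels do not say whether replicates were separate cultures, so the p-values speak of array-to-array spread alone, which may be technical. The dose of FSH, the medium and the strain are not given in the sources used here.

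In the ubiquitin-proteasome pathway, an E1 enzyme activates ubiquitin, an E2 enzyme carries it, and an E3 ligase directs it to a target protein, while deubiquitinases take it off again. The tagged protein is unfolded and fed by the 19S cap, whose ATPases form a ring under a set of non-ATPase subunits, into the 20S core, a barrel of alpha rings that gate entry and beta rings that hold the cutting sites. FSH acts on Sertoli cells, the somatic nurse cells of the seminiferous tubule, through a receptor that raises cyclic AMP, and cyclic AMP acts on many genes through factors bound to the cyclic AMP response element. In the testis the pathway is best known for protein turnover during germ cell development.

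The 250 bases before the start of each gene, as RefSeq gives them on GRCr8, were found for 40 of the 41 genes, all but Psma7. The half-site of the cyclic AMP response element, TGACG on either strand, occurred in 14 of the 40 promoters (35.0%), against 25.2% of the promoters of 3872 genes on the array and 19% of all 27457 promoters. The full palindrome TGACGTCA, which holds a half-site on each strand, occurred in 1 of the 40, that of Psmb2 (2.5%), against 2.32% of array genes and 1.7% of all promoters. The core of the antioxidant response element, TGACNNNGC on either strand, which can overlap the half-site, occurred in 7 (17.5%), against 12.3% of array genes and 10.2% of all promoters. These matches are descriptions of letters in a window and were not tested against the changes in expression. 4 promoters are shown, chosen after the values were seen. Ube2a and Ube2b were taken for their changes at 2 h and 4 h, and Psmb2 for its palindrome. Psmb5 was taken because replicate 1 was the higher array at 0 h and the lower one at 2, 4 and 8 h. Capitals mark TGACG or its complement CGTCA. Ube2a lies at chrX:120979834-120980083 on the plus strand and has no half-site in the window. Ube2b lies at chr10:36763944-36764193 on the minus strand, with a half-site whose first base is 30 bases before the start. Psmb2 lies at chr5:144254808-144255057 on the plus strand, with overlapping half-sites at 90 and 87 bases before the start, and Psmb5 at chr15:32047380-32047629 on the minus strand, with one at 60 bases before the start.
Ube2a: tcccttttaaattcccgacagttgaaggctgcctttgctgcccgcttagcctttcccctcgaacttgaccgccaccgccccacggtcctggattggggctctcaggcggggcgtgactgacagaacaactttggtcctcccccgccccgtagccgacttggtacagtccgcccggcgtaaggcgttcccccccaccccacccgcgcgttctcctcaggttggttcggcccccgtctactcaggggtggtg
Ube2b: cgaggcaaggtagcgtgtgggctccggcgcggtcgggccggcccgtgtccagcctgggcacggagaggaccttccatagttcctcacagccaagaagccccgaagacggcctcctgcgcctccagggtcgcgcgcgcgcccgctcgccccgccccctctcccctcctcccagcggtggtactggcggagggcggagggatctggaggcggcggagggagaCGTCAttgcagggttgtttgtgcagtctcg
Psmb2: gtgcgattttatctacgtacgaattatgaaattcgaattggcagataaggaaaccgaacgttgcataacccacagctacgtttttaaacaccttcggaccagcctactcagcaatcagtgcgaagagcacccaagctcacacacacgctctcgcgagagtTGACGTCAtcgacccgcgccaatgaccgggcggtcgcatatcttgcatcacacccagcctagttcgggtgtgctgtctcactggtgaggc
Psmb5: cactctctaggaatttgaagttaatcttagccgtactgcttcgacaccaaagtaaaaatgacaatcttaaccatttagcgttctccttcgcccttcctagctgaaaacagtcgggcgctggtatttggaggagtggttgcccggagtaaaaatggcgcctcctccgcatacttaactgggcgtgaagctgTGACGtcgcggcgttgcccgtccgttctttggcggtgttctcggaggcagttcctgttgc

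The arrays differed by replicate number in ways that touch several of these genes. Germ cell markers, summed over the 13 of 19 listed genes on the array, ranged over 2328 to 2783 in replicate 2, against 272 to 1018 in replicate 1. The 1018 belonged to the 0 h array, and the FSH arrays of replicate 1 held 272 to 579. Sertoli markers, summed over 8 of 13 listed genes, came to 8773 to 12499 on replicate 2 and 11988 to 16631 on replicate 1. The ratio of the 3' to the 5' probe set of beta-actin, a measure of RNA and labelling length, was 1.48 to 1.76 on replicate 2 and 0.928 to 1.17 on replicate 1. Clu made up most of each Sertoli sum, at 6791 to 9813 on replicate 2 and 9259 to 13806 on replicate 1, while Shbg ran the other way at all 4 FSH times, with 617 to 913 on replicate 2 and 583 to 787 on replicate 1. Between the replicate numbers, 4 of 7 germ cell markers tested were called higher in replicate 2 and 4 of 8 Sertoli markers lower. Of all tested probe sets, 6.53% were called higher in replicate 2 and 8.65% lower. Among the germ cell markers tested, Ddx4 read 43.3 to 159 on replicate 2 and 11.9 to 31.7 on replicate 1. It reached the filter only through replicate 2, so a difference between the replicates was partly built into its passing. Peritubular myoid markers summed to 1965 on the 24 h array of replicate 1, 1363 of it from Acta2, against 394 to 649 on replicate 2 and 169 to 604 on the other replicate 1 arrays. The sums for Leydig, macrophage and endothelial markers were 27.3 to 124 on replicate 2 and 49.0 to 145 on replicate 1, with 1, 1 and 0 of their genes bright enough to test. These sums do not separate fewer cells of a type from less RNA per cell, and their part in the results below was not tested.

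No proteasome subunit or ubiquitin enzyme passed the test at any time. With limma and a Benjamini-Hochberg adjusted p under 0.05, 0 of 58 probe sets were called against 0 h, where 0.676% of all tested probe sets were called at 2 h, 0.856% at 4 h, 0.766% at 8 h and 0% at 24 h. Beside shares this low, a 0 among 58 says nothing particular to these genes. At an unadjusted p under 0.05 the members numbered 0 at 2 h, 0 at 4 h, 1 at 8 h and 0 at 24 h, against 203, 344, 413 and 204 of the 4439. The F test over the 4 times called 0 members and 0.991% of all probe sets. With replicate number as a block the count of members was again 0 at each time and in the F test, where all probe sets gave 1.22% at 2 h, 2.95% at 4 h, 2.68% at 8 h, 0.0901% at 24 h and 3.22% in the F test. The smallest adjusted p of a member was 0.519 without the block and 0.230 with it, both at 8 h.

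Most changes were small in size. On the log2 scale the median change over the 58 members was 0.07 at 2 h, -0.09 at 4 h, 0.12 at 8 h and 0.05 at 24 h, and over all tested probe sets it was -0.02, -0.03, -0.02 and 0.02 at those times. The median size of change, without its sign, was 0.224, 0.209, 0.253 and 0.203 for the members at 2, 4, 8 and 24 h, and 0.284, 0.305, 0.364 and 0.313 for all probe sets. At least 1 log2 unit, which is 2-fold, was reached by 0 members at 2, 4 and 24 h and by 2 at 8 h, the immunoproteasome subunit Psmb9 and the E2 enzyme Ube2h. Among all probe sets 6.40%, 10.1%, 11.5% and 5.99% reached it at those times. The Ube2h change is no measured fold. Its replicate 2 value at 0 h was raised to the floor put under dim values. Ube2h also passed the filter only because of its brighter arrays, the 8 h pair among them. Precision was limited by 2 arrays a group: the median half-width of the members' 95% intervals was 0.970 log2 units. Intervals lay wholly within 1 log2 unit of no change for 17 of 58 members at 2 h, 16 at 4 h, 10 at 8 h and 16 at 24 h. A 2-fold change was outside the interval for those and inside it for the others. As shares these were 29.3%, 27.6%, 17.2% and 27.6% of the members, against 17.4%, 16.4%, 13.1% and 14.5% of all tested probe sets.

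**Figure D1:**
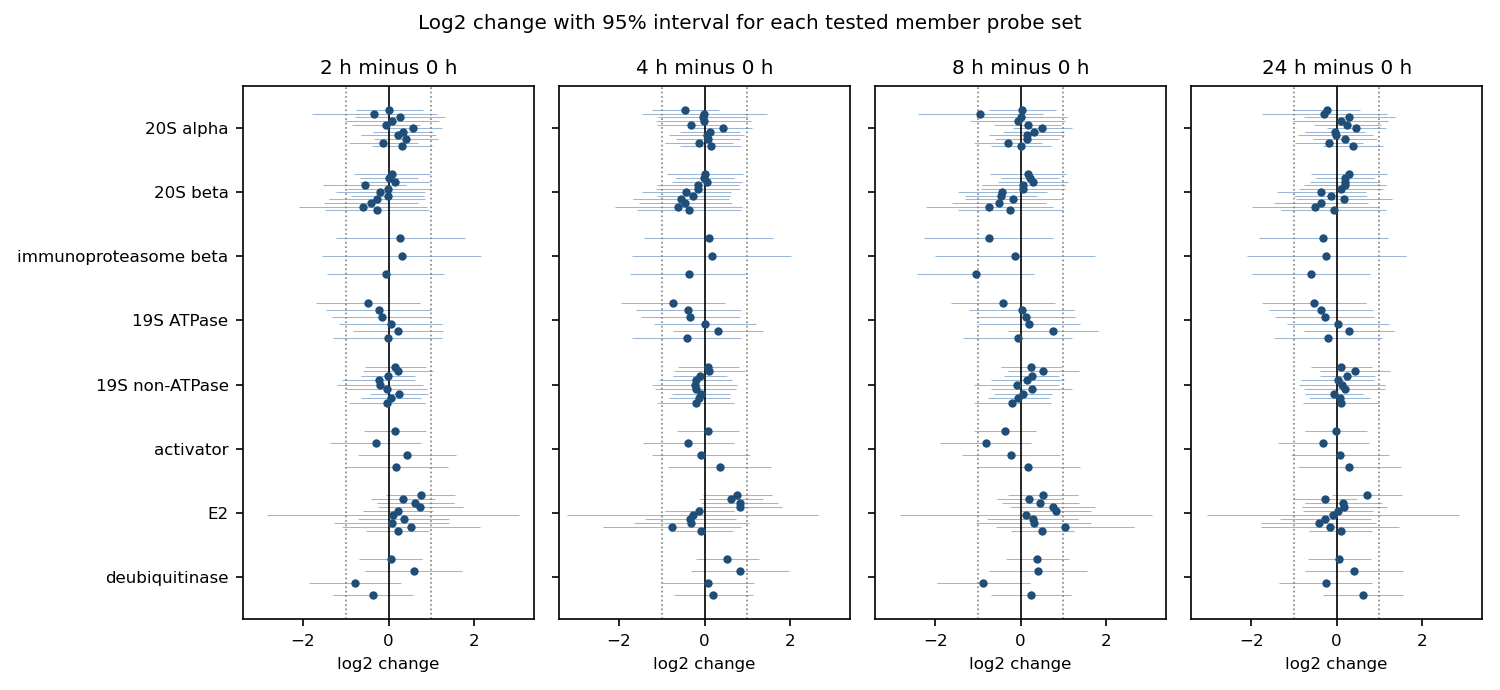
Log2 change against 0 h (horizontal axis, log2 units) of each of the 58 tested probe sets, grouped by role, with 1 panel for each time of FSH. Points are limma estimates from 2 arrays a group, bars are 95% intervals, and dotted lines mark 2-fold. The E2 enzymes lie to the right of 0 at 2 h and 8 h, 10 of 10 each time. The 10 include Ube2h, which reached the filter only because of its brighter arrays, the 8 h pair among them.

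Both FSH arrays lay above both 0 h arrays for 10 members at 2 h (17.2%), 9 at 4 h (15.5%), 13 at 8 h (22.4%) and 7 at 24 h (12.1%). Among all tested probe sets the shares were 11.9%, 15%, 17.7% and 15.9%. Both FSH arrays lay below both 0 h arrays for 2 members (3.45%) at each time, where all probe sets gave 12.3% at 2 h, 13% at 4 h, 17.2% at 8 h and 13.4% at 24 h. The 4 comparisons share the 0 h arrays, so these counts are not independent of each other. All 8 FSH arrays lay above both 0 h arrays for 2 members, Ube2a and Psma4 (3.45%), against 3.15% of all probe sets, and below them for 0 members, against 3.27% of all.

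The E2 enzymes, which pass ubiquitin to its targets, had positive changes at 2 h and 8 h, none of which passed the test. That held for all 10 tested probe sets, of 7 genes, with a median log2 change of 0.35 at 2 h and 0.49 at 8 h. At 4 h, 4 of 10 were positive (median -0.10), and at 24 h 5 of 10 were (median -0.02). The 10 include Ube2h, which reached the filter only because of its brighter arrays, the 8 h pair among them. A high value at 8 h was thus partly built into its passing. Of all 4439 probe sets, 2127 were positive at 2 h and 2145 at 8 h. Without the 0 h array of replicate 1 the E2 count was 7 of 10 at 2 h and at 8 h, with medians of 0.31 and 0.35. Without the 0 h array of replicate 2, 11 E2 probe sets were tested and 9 were positive at 2 h and 11 at 8 h, with medians of 0.72 and 0.78.

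Ube2a and Ube2b are close relatives of yeast Rad6, which marks histone H2B and acts in DNA damage tolerance, and loss of Ube2b leaves male mice infertile. On replicates 2 and 1, Ube2a read 214 and 211 at 0 h, 293 and 434 at 2 h, 288 and 456 at 4 h, 314 and 298 at 8 h, and 305 and 397 at 24 h, in scaled intensity. Every FSH array was above both 0 h arrays. It averaged 364 ± 99.6 at 2 h and 212 ± 2.53 at 0 h (SD, n = 2 each), a log2 change of 0.75 (SE 0.36, 95% interval -0.07 to 1.56), with a limma adjusted p of 0.999. The log2 change was 0.77 at 4 h, 0.53 at 8 h and 0.71 at 24 h, and each had an interval that held 0. The 2 h change was 0.45 in replicate 2 and 1.04 in replicate 1.

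Ube2b had 3 probe sets, of which 1 and 2 carry the same sequence identifier. Probe set 3 read 129 and 140 at 0 h on replicates 2 and 1, 180 and 280 at 2 h, 168 and 337 at 4 h, 170 and 300 at 8 h, and 139 and 166 at 24 h. Its FSH arrays stood clear of the 0 h arrays at 2, 4 and 8 h, and replicate 1 carried most of the difference. The log2 change was 0.74 at 2 h, 0.83 at 4 h (SE 0.44, limma adjusted p 0.831, and 0.266 with the block) and 0.75 at 8 h. Probe set 2 read 150 and 90.9 at 0 h, 171 and 190 at 2 h, 159 and 268 at 4 h, 202 and 129 at 8 h, and 132 and 128 at 24 h. Its log2 change was 0.63 at 2 h and 0.82 at 4 h, where the groups did not overlap, and 0.47 at 8 h, where they did. Probe set 1 read 321 and 321 at 0 h, 327 and 510 at 2 h, 455 and 534 at 4 h, 389 and 347 at 8 h, and 244 and 289 at 24 h. It was higher than 0 h by 0.62 at 4 h and lower by 0.27 at 24 h (log2 change -0.27, limma adjusted p 0.996), with no overlap at either time.

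**Figure D2:**
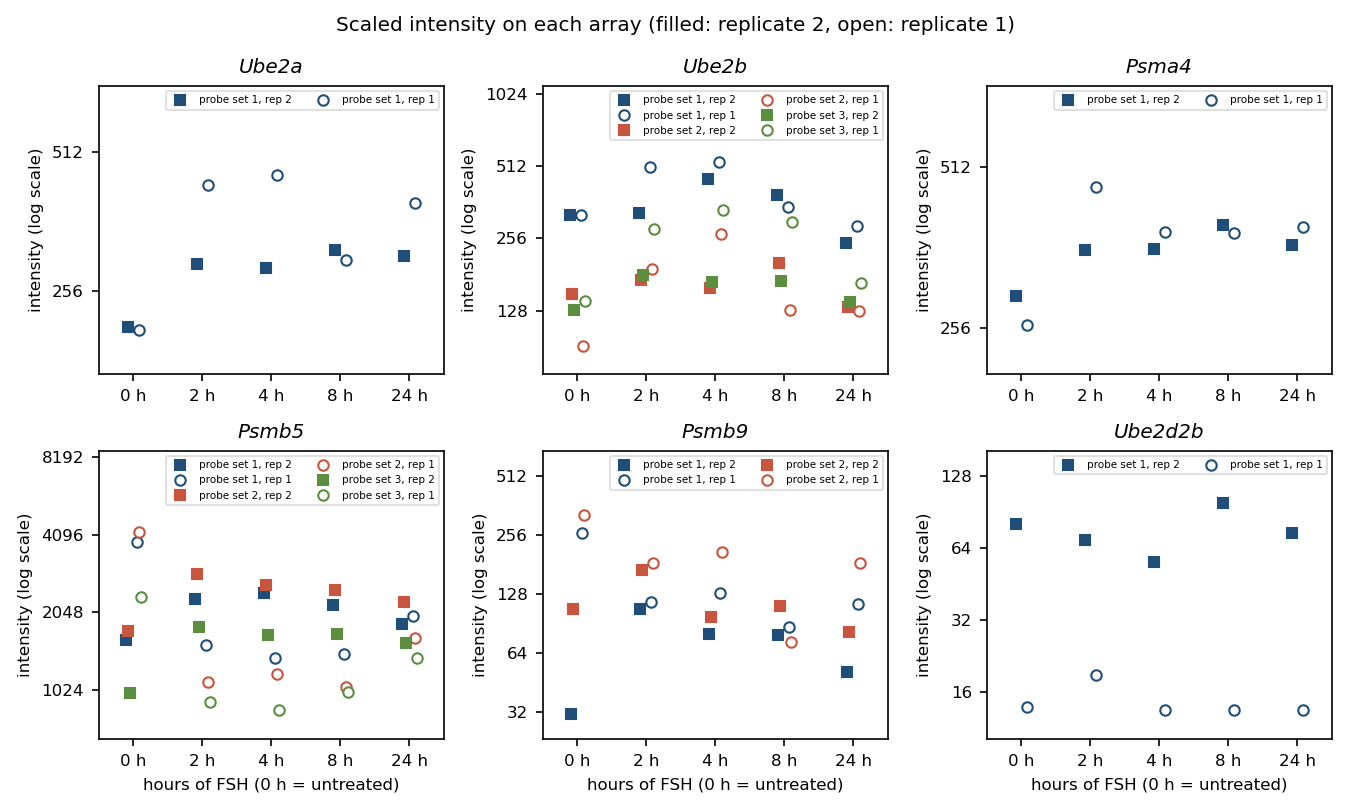
Scaled intensity (vertical axis, log scale) on each of the 10 arrays against hours of FSH for 6 genes, with 1 colour for each probe set; filled squares are replicate 2 and open circles replicate 1, and values under the floor of 13.5 are drawn at it. Ube2a and Psma4 lie above their 0 h values on all 8 FSH arrays, Psmb5 has its highest values on the replicate 1 array at 0 h, and Ube2d2b is split by replicate number at every time.

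Ube2d2, an E2 that works with many E3 ligases, read 73.9 and 79.3 at 0 h on replicates 2 and 1, 90.3 and 88.6 at 2 h, 55.9 and 88.9 at 4 h, 106 and 174 at 8 h, and 75.8 and 81.4 at 24 h. The 8 h arrays were the highest pair. At 8 h it averaged 140 ± 48, against 76.6 ± 3.88 at 0 h (SD, n = 2 each), a log2 change of 0.83 (SE 0.36, 95% interval 0.01 to 1.64). Its unadjusted p of 0.0468 was the only one under 0.05 among the members against 0 h, and the limma adjusted p was 0.519.

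Ube2h was the dimmest tested E2, with a mean of 32.8 that reached the filter of 32.0 only because of its brighter arrays, the 8 h pair among them. It read 7.73 and 51.9 at 0 h on replicates 2 and 1, 31.8 and 45.5 at 2 h, 9.92 and 18.2 at 4 h, 43.0 and 69.0 at 8 h, and 15.9 and 35.1 at 24 h. The 0 h pair spanned most of that range, and the 7.73 and 9.92 were under the floor of 13.5. The 8 h difference of 1.04 (SE 0.71, limma adjusted p 0.767) was taken against a floored 0 h value and is no measured fold, and the groups overlapped. The brightest E2 probe set, of the membrane-anchored Ube2j2, read 565 to 941 on replicate 2 and 648 to 1049 on replicate 1, with its highest pair at 8 h. The pair of probe sets of Ube2g1 changed by at most 0.42 log2 units in size.

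Deubiquitinases were measured by 4 probe sets of 3 genes, and 3 of the 4 were above 0 h at 4 h on both arrays, as were 15% of all tested probe sets. Usp37, which acts on cell cycle proteins, read 167 and 124 at 0 h on replicates 2 and 1, 145 and 323 at 2 h, 174 and 375 at 4 h, 153 and 239 at 8 h, and 214 and 170 at 24 h. The 2, 4 and 8 h arrays of replicate 1 were high, and those of replicate 2 stayed within 0.21 log2 units of their own 0 h array. The 4 h log2 change of 0.83 was 0.06 in replicate 2 and 1.60 in replicate 1 (limma adjusted p 0.906). Usp19, anchored in the endoplasmic reticulum, read 289 and 214 at 0 h, 237 and 280 at 2 h, 322 and 403 at 4 h, 300 and 356 at 8 h, and 241 and 281 at 24 h, a log2 change of 0.53 at 4 h (limma adjusted p 0.906). The 2 probe sets of Usp40 took the same sign at 2 h and 4 h and opposite signs at 8 h and 24 h. Probe set 1 read 68.5 and 33.5 at 0 h, 29.9 and 26.2 at 2 h, 61.5 and 42.1 at 4 h, 22.5 and 30.6 at 8 h, and 44.7 and 35.8 at 24 h, so both arrays were below 0 h at 2 h (-0.78) and 8 h (-0.87). Probe set 2 read 37.8 and 37.7 at 0 h, 36.5 and 23.7 at 2 h, 39.0 and 48.6 at 4 h, 39.6 and 50.6 at 8 h, and 48.4 and 69.6 at 24 h. Its 2 h arrays were also both below 0 h (-0.36). It differed by 0.25 at 8 h and by 0.62 at 24 h, in the upward direction (limma adjusted p 0.944 and 0.996).

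The alpha subunits, which form the outer rings of the 20S core, were measured by 11 tested probe sets of 6 genes. Their median log2 change was 0.22 at 2 h, -0.00 at 4 h, 0.04 at 8 h and 0.09 at 24 h. Psma4 read 294 and 259 at 0 h on replicates 2 and 1, 358 and 469 at 2 h, 359 and 387 at 4 h, 398 and 386 at 8 h, and 365 and 396 at 24 h. All FSH arrays exceeded both 0 h arrays, by log2 changes of 0.57, 0.43, 0.51 and 0.46 (SE 0.30 at each time, smallest limma adjusted p 0.701). Psma1 was below 0 h at 4 h on probe set 1, which read 243 and 335 at 4 h against 372 and 407 at 0 h (log2 change -0.45, limma adjusted p 0.999). At 8 h it was probe set 2 that was lower, with 37.6 and 16.3 against 52.7 and 43.0 at 0 h (log2 change -0.95, limma adjusted p 0.767), while probe set 1 differed by 0.04. Psma6 had the highest mean signal of the alpha probe sets, 1361 to 1904 on replicate 2 and 1086 to 1570 on replicate 1, with log2 changes of 0.42 at 2 h and 0.14 at 8 h.

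The constitutive beta subunits, Psmb1 to Psmb5 on this array, gave high signals and depended on which 0 h array was used. Their median log2 change over 11 probe sets was -0.20 at 2 h, -0.26 at 4 h, -0.17 at 8 h and 0.11 at 24 h, but the replicates took opposite signs. It was 0.60, 0.50, 0.53 and 0.38 in replicate 2 and -0.88, -0.86, -0.90 and -0.38 in replicate 1. Without the 0 h array of replicate 1 the medians were 0.39, 0.26, 0.38 and 0.43, and without that of replicate 2 they were -0.88, -0.80, -0.86 and -0.59. The 0 h array of replicate 1 was the highest of all 10 arrays for 9 of the 11 beta probe sets.

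Psmb5, the subunit with chymotrypsin-like activity, read 1598 and 3827 on probe set 1 at 0 h on replicates 2 and 1. It then read 2294 and 1524 at 2 h, 2424 and 1358 at 4 h, 2175 and 1411 at 8 h, and 1846 and 1975 at 24 h. Replicate 1 was the higher array at 0 h and the lower one at 2, 4 and 8 h. The log2 change at 2 h was 0.52 in replicate 2 and -1.33 in replicate 1, giving -0.40 (limma adjusted p 0.999). Psmb4, whose probe set 1 had the highest mean signal of any member, read 1627 and 4619 at 0 h, 2287 and 2505 at 2 h, 1848 and 2239 at 4 h, 2113 and 1959 at 8 h, and 1783 and 2547 at 24 h. Apart from the 4619, its arrays spanned less than 2-fold. Psmb2, the gene with the palindrome, was steadier on probe set 1, which read 413 and 491 at 0 h, 422 and 490 at 2 h, 413 and 490 at 4 h, 539 and 514 at 8 h, and 495 and 536 at 24 h. Its brighter probe set 2 was split by replicate number, with 953 to 1267 on replicate 2 and 1327 to 1568 on replicate 1.

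Psmb8 and Psmb9 replace constitutive beta subunits in the immunoproteasome and are induced by interferon gamma. Psmb9 had the largest downward change of any member, on probe set 2, which read 108 and 324 at 0 h on replicates 2 and 1, 171 and 185 at 2 h, 98.3 and 211 at 4 h, 111 and 73.0 at 8 h, and 82.2 and 184 at 24 h. The log2 change at 8 h was -1.05 (95% interval -2.43 to 0.32, limma adjusted p 0.692). It was 0.04 in replicate 2 and -2.15 in replicate 1, so the difference came from replicate 1 alone. Probe set 1 of Psmb9 read 31.5 and 262 at 0 h and changed by -0.13 at 8 h. Psmb8 read 215 and 607 at 0 h, 374 and 512 at 2 h, 225 and 663 at 4 h, 224 and 207 at 8 h, and 182 and 464 at 24 h, and its groups overlapped at all 4 times.

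In the 19S cap the ATPases were measured by 6 probe sets of 5 genes, with median log2 changes of -0.09, -0.36, 0.07 and -0.24 at 2, 4, 8 and 24 h. Psmc4 read 161 and 416 at 0 h on replicates 2 and 1, 368 and 245 at 2 h, 379 and 269 at 4 h, 461 and 416 at 8 h, and 298 and 339 at 24 h. Both 8 h arrays reached the higher 0 h array, one of them by under 1 unit of intensity, and the log2 change of 0.76 was 1.52 in replicate 2 and 0.00 in replicate 1 (limma adjusted p 0.711). Psmc1 had the highest mean signal of the ATPases and read 565 and 1498 at 0 h, 914 and 481 at 2 h, 735 and 416 at 4 h, 858 and 560 at 8 h, and 638 and 638 at 24 h. It showed the same turn as Psmb5, replicate 1 being higher at 0 h and lower at 2, 4 and 8 h.

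The non-ATPase subunits, with scaffold and ubiquitin-receptor roles, had small median changes. Their 9 probe sets had median log2 changes of -0.02, -0.12, 0.16 and 0.11 at 2, 4, 8 and 24 h. At those times 6, 5, 4 and 6 of the 9 intervals lay within 1 log2 unit of no change, as did 17.4%, 16.4%, 13.1% and 14.5% of all tested. Psmd1, a scaffold subunit, read 942 and 1047 on probe set 3 at 0 h on replicates 2 and 1, 992 and 974 at 2 h, 912 and 930 at 4 h, 1191 and 1183 at 8 h, and 1115 and 1251 at 24 h. The 4 h arrays were just below both 0 h arrays (log2 change -0.11) and the 8 h arrays above them (0.26, limma adjusted p 0.887). Its probe set 2 gave 0.54 at 8 h and probe set 1, the dimmest of the non-ATPase probe sets, gave 0.25.

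Among the activators, Psme1 and Psme2 form the cap that interferon gamma induces, and Psme4 forms another that in mouse acts on histones in spermatids. Probe set 2 of Psme1 read 985 and 1490 at 0 h on replicates 2 and 1, 1279 and 752 at 2 h, 1130 and 770 at 4 h, 1042 and 455 at 8 h, and 971 and 985 at 24 h. At 24 h both arrays were below 0 h by a small margin (log2 change -0.31, limma adjusted p 0.996). Probe set 1, which carries the same sequence identifier, read 973 and 1453 at 0 h, 1218 and 1453 at 2 h, 1313 and 1221 at 4 h, 987 and 878 at 8 h, and 1078 and 1268 at 24 h, a log2 change of -0.02 at 24 h. Psme4, the dimmest of the 4, ranged over 29.9 to 48.5 on replicate 2 and 33.6 to 75.3 on replicate 1.

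**Figure D3:**
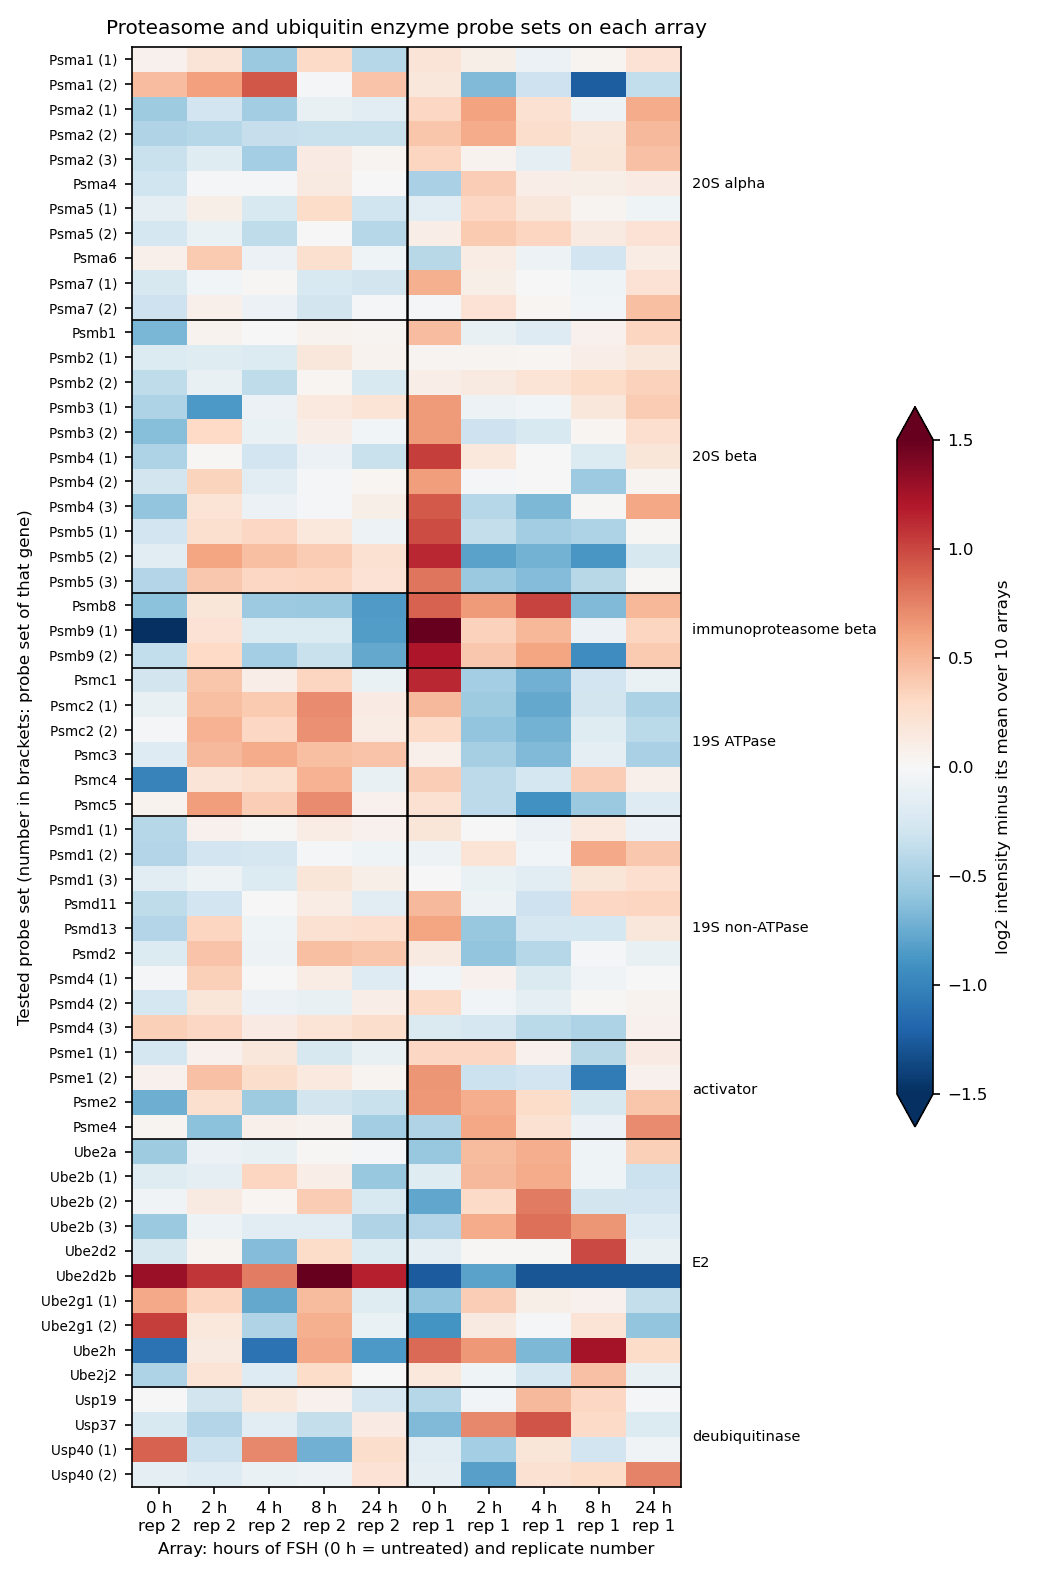
Each row is 1 tested probe set, grouped by role, and each column 1 array, replicate 2 on the left and replicate 1 on the right, in order of hours of FSH; colour is the log2 intensity minus that probe set's mean over the 10 arrays. The replicate 1 array at 0 h is the highest of the 10 for 19 of the 58 probe sets, 9 of them constitutive beta subunits and 2 immunoproteasome beta subunits.

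The untreated pair stood apart from the FSH pairs. The standard deviation over members of the log2 difference between replicates was 0.928 at 0 h and 0.605 to 0.714 at the other times, and over all tested probe sets it was 0.978 and 0.807 to 0.862. The replicate 1 array at 0 h was the highest of 10 for 19 of 58 members (32.8%), against 17% of all probe sets. The replicate 2 array at 0 h departed too. Its median intensity before scaling was 44.4, against 26.7 to 34.9 on the other arrays. The median deviation of members from their mean over the 10 arrays was -0.26 on it and 0.19 on the replicate 1 array at 0 h. For 9 members (15.5%) replicate 2 was lower than replicate 1 at 0 h and higher at all 4 FSH times, against 7.01% of all, and 5 of the 9 were ATPase probe sets. The opposite turn was made by 1 member (1.72%), against 8.29% of all. Median replicate differences of the ATPases were 0.99, 1.09, 0.74 and 0.39 at 2, 4, 8 and 24 h and -0.46 at 0 h. Those of the constitutive beta subunits were 0.35, 0.13, 0.07 and -0.17, and -1.24 at 0 h. Leaving out the 0 h array of replicate 1 moved the median change over all members to 0.30, 0.23, 0.31 and 0.29 at the 4 times, and leaving out that of replicate 2 moved it to -0.15, -0.38, -0.04 and -0.20.

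**Figure D4:**
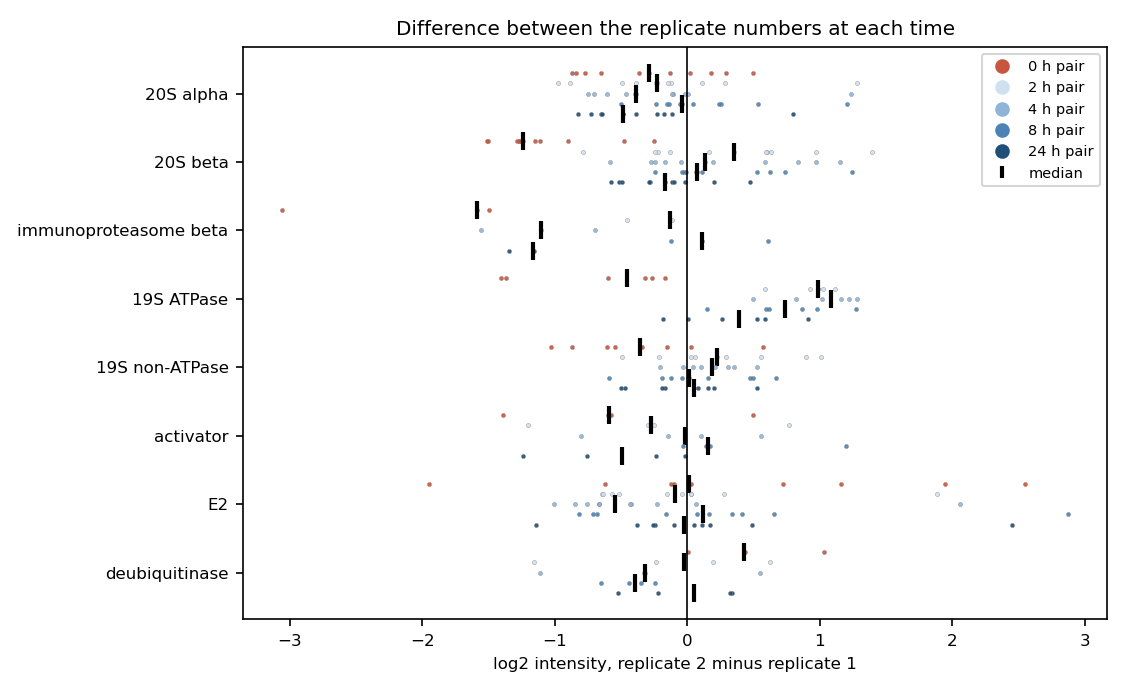
Log2 intensity of replicate 2 minus replicate 1 (horizontal axis) for each tested probe set at each time, grouped by role; red points are the 0 h pair, blue points the 4 FSH pairs from pale (2 h) to dark (24 h), and black bars are medians. For the constitutive beta subunits the 0 h median is -1.24 and the FSH medians lie between -0.17 and 0.35, and for the 19S ATPases the 0 h median is -0.46 and the FSH medians lie between 0.39 and 1.09.

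Across all 10 arrays, 2 members were called higher in replicate 2 than in replicate 1, where 6.53% of all probe sets were, and 3 were called lower, where 8.65% of all were (limma with group as a term). These took in Ube2d2b, described in rat as a testis form of this E2 that spermatids express. It read 80.4, 69.0, 55.9, 98.4 and 73.7 on replicate 2 at 0, 2, 4, 8 and 24 h, and 13.8, 18.7, 11.4, 12.7 and 9.46 on replicate 1, the last 3 under the floor. Its mean of 44.3 reached the filter only through replicate 2, so a difference between the replicates was built into its passing. No replicate 2 array overlapped a replicate 1 array, and the log2 difference, taken against floored values, was 2.36 (SE 0.28, limma adjusted p 0.00113). Of the germ cell markers, Ldhc, a lactate dehydrogenase of the germ line, read 1009 to 1652 on replicate 2 and 58.6 to 571 on replicate 1, and with Hspa2 it made up most of the sum on each replicate 2 array. The germ cell markers Acr, Prm2 and Sycp3 overlapped between the replicate numbers. Probe set 2 of Psma1 was higher in replicate 2 by 0.96 (limma adjusted p 0.0370). Psmb8 (-0.95) and probe sets 2 and 1 of Psma2 (-0.76 and -0.65), an alpha ring subunit, were the members called lower.

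The 0 h pair ran against all 4 FSH pairs for some members, 9 one way and 1 the other. The same comparison was therefore also made over the 4 FSH pairs alone, a choice made after seeing the data. Those members took in 5 ATPase probe sets and probe sets 2 and 3 of Psmb5. Their calls below follow from leaving out the 0 h pair and are no separate result. Of 57 members tested, 11 were then called higher in replicate 2, against 10.8% of all probe sets, and 4 lower, against 12.8% of all. Those higher took in 5 of the 6 ATPase probe sets: Psmc5 by 0.96, Psmc2 by 0.93 and 0.88, Psmc3 by 0.93 and Psmc1 by 0.59. Others were Psmb5 by 1.07 on probe set 2 and 0.72 on probe set 3, Psmd2 by 0.59, probe set 2 of Psme1 by 0.62, probe set 2 of Psma1 and Ube2d2b. Probe set 2 of Psma1 and Ube2d2b had passed the filter only through replicate 2. The 4 lower were probe sets 1 and 2 of Psma2, Psmb8 and probe set 3 of Ube2b (-0.68). For Psmb5 and Psme1, the only genes for which it was taken, the replicates also differed in the ratio between probe sets that carry the same sequence identifier. That of Psmb5 probe set 2 over probe set 1 was 1.08 to 1.26 on replicate 2, and 0.722 to 0.867 on the FSH arrays of replicate 1 but 1.10 on its 0 h array. That of Psme1 was 0.861 to 1.06 on replicate 2, and 0.518 to 0.777 on the FSH arrays of replicate 1 but 1.03 on its 0 h array. Other such pairs went both ways in the log2 difference of replicate 2 minus replicate 1 over all times. It was -0.46 and -0.04 on probe sets 1 and 2 of Psmb4, but -0.12 and -0.47 on those of Psma5.

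Between successive times no member was called: 0 of 58 at 4 h against 2 h, at 8 h against 4 h and at 24 h against 8 h, where 0%, 0% and 0.225% of all probe sets were called. With the block the member counts were also 0, where 0%, 0.0901% and 1.15% of all were called. At an unadjusted p under 0.05 there were 0, 2 and 0 members, against 160, 152 and 288 of 4439 probe sets. The 2 were Ube2d2, higher at 8 h than at 4 h by 0.95 log2 units, and Ube2h, higher by 1.80, and both have a limma adjusted p of 1.00. The replicates moved alike, by 0.92 in replicate 2 and 0.97 in replicate 1 for Ube2d2, and by 1.68 and 1.92 for Ube2h. The replicate 2 value of Ube2h at 4 h, 9.92, was under the floor, and its 8 h arrays brought it over the filter, so its 8 h differences are no measured folds. At 24 h the E2 probe sets were lower than at 8 h in 9 of 10 cases, with a median log2 change of -0.50. Of all 4439 probe sets, 2103 were lower, and the median was 0.03. The E2 count includes Ube2h and uses the same 8 h arrays as the E2 rise at 8 h against 0 h, so it is no separate result.

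Different probe sets of 1 gene gave the same sign of change for 9 of 16 genes at 2 h and for 11 of 16 at 4, 8 and 24 h. The 9 members below the filter had mean intensities of 3.91 to 30.9 and were not tested. They were the only probe sets of Psmd10, Ube2e3, Ube2g2, Ube2m and Ube2q2, and further ones of Psma5, Psma6, Psme1 and Psmd1. Other genes of the pathway were read from 6 lists of 135 genes, of which 34 passed the filter with 48 probe sets. None of the 48 was called up or down at any of the 4 times, with or without the block, where all probe sets gave at most 0.856% without it and 2.95% with it, so the 0 says nothing particular to these genes. Their median log2 change was 0.04, -0.10, 0.14 and 0.03 at 2, 4, 8 and 24 h. By list, 16 of 65 E3 ligases and cullin parts were tested, 4 of 12 other deubiquitinases, 2 of 10 assembly factors, 5 of 15 shuttle and segregase genes, 7 of 29 SUMO, NEDD8 and other modifier genes, and 0 of 4 ubiquitin precursors.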

How the data were processed

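Intensities were deposited by the authors as 1 linear value per probe set and array, and the software that made them is not given in the sources used here. In the deposited intensities, array means trimmed of 2% at either end were 125.2 to 125.27, and no 2 arrays shared more than 1.03% of their values. Here each array was scaled by 0.889 to 1.10 to a common 75th percentile of 108, floored at that percentile divided by 8 (13.5), and put on the log2 scale. Means and SDs are of scaled intensity. Apart from 59 controls, which were dropped, 4439 of 8740 probe sets had a mean that reached the pooled median. Tests used limma 3.58.1 in R 4.3.3 (lmFit and eBayes with an intensity trend) on 5 group means, with 5 residual degrees of freedom, or 4 with replicate number as a block. P-values were adjusted over all 4439 by the Benjamini-Hochberg method and called under 0.05. The steps were tested on simulated data. Signals of different probe sets are not comparable as RNA levels.

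Gene symbols came from the platform annotation, in which 7006 probe sets carry 1 symbol, 308 carry several and 1426 are without one. All 67 members matched a RefSeq gene with the same symbol. The 2 h array without a number was taken as replicate 1, and the control array titled without a time was placed at 0 h by its description. Deviations from the group means of same-numbered arrays correlated at 0.110 to 0.698 over all 10 pairs of groups. The numbers were therefore taken to pair the arrays, and the test was also run with the block.

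Probe sets given by value are the 3 largest differences each way at each time among those whose FSH arrays both lay beyond both 0 h arrays, with all probe sets of their genes, the largest replicate differences among called members, and the brightest and dimmest of each role. Psmb5, Psmb9, Ube2h and Psmb2 were described further after their values were seen. The members, lists and tests were chosen with earlier results of these data known. Alternatives changed the scaling, the floor, the filter, the variance model, the block and the arrays used.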

Additional observations from a re-analysis of the deposited data

How the results depend on the processing

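Under the 20 alternative settings, the count of proteasome and ubiquitin enzymes called stayed at 0 at every time against 0 h, between successive times and in the F test, including 0 with the replicate block, which changed no member's call against 0 h. None of the 20 named changes was called, the smallest adjusted p being 0.230; since both FSH arrays of each lay beyond both 0 h arrays, leaving out 1 array could not turn their sign. The medians over members turned sign with the 0 h array used: without that of replicate 1 they were 0.30, 0.23, 0.31 and 0.29 at 2, 4, 8 and 24 h, and without that of replicate 2 they were -0.15, -0.38, -0.04 and -0.20. The count called between replicates, 5 in the main setting, was 8 with values as deposited, 9 with quantile normalization, 2 with no filter on dim probe sets, 3 with a mean of at least 2 pooled medians and 3 with 1 probe set per gene, the brightest (added after seeing the data). Leaving out 1 array gave 1 to 15: 15 without either 0 h array, 2 without a 2 h or 4 h array and 1 without a 24 h array. Leaving out either 0 h array takes the 0 h pair out of the comparison between replicates. Those counts thus rest on the same 4 FSH pairs as the comparison given above and are no separate result. The cause of the other differences in count between settings was not tested. With 2 arrays a group, the number of arrays limits what could be called.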
